A study of Mus musculus with 12 samples.

Results

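The sodium pump and the sodium, chloride and potassium channels of the muscle fibre membrane were examined through 6 genes. They are Atp1b1 and Atp1b2 (beta subunits of the sodium-potassium pump), Fxyd1 (its regulator phospholemman), Scn4a (the voltage-gated sodium channel of skeletal muscle), Clcn1 (the muscle chloride channel) and Kcnj11 (the pore of the ATP-sensitive potassium channel). They were chosen by symbol, and all 6 were among the 10187 genes of the expression table and among the 7247 genes tested. RNA came from the triceps brachii, the large extensor of the elbow, taken from 12 male mice (C57/BL6), 3 in each of 4 groups. These were inactive wild-type (IW), active wild-type (AW), inactive myostatin-reduced (IM) and active myostatin-reduced (AM). Every mouse, controls included, ate chow with 0.025% tamoxifen for 6 weeks from 4 months of age. In the myostatin-reduced mice exon 3 of Mstn was flanked by loxP sites and was removed by Cre recombinase that tamoxifen activates. The promoter driving Cre was not given in the sources used here, so the loss cannot be assigned to muscle fibres alone. Active mice had a running wheel for 12 weeks from 6 months of age, and inactive mice had none. Mice were caged in groups before the trial, and the active mice were moved to single housing with their wheels. Effects of the wheel and of single housing therefore cannot be told apart.

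A muscle fibre fires when sodium enters through Scn4a channels, and the action potential travels along the surface and the transverse tubules. Chloride flow through Clcn1 stabilises the resting membrane, and loss of its function causes myotonia. The pump then restores the gradients by exporting sodium and importing potassium. Its alpha subunit does the transport, its beta subunit brings alpha to the membrane, and FXYD proteins tune its affinity. Potassium channels containing Kcnj11 open when ATP falls and so tie excitability to the energy state of the fibre.

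The 250 bases before the start are shown for Clcn1 and Scn4a, which share a pattern across the mice, and for Atp1b1, which moved the other way. RefSeq promoter entries were matched for 4 of the 6 genes, those of Atp1b1, Fxyd1, Clcn1 and Scn4a. The sequences are RefSeq's on build GRCm38.p6, each read 5′ to 3′ on the strand of its gene. Capitals mark letters found by a search of both strands for an E-box (CANNTG), a TATA box (TATAAA), a GC box (GGGCGG) and the MEF2 site. In Clcn1 (chr6:42286435-42286684, plus strand) the TATA box overlaps the MEF2 site.
Clcn1: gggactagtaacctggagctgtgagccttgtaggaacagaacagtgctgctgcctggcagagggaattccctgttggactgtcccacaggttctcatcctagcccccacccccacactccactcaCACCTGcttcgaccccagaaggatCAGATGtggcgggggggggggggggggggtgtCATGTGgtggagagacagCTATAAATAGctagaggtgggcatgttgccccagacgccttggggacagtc
Scn4a (chr11:106349391-106349640, minus strand): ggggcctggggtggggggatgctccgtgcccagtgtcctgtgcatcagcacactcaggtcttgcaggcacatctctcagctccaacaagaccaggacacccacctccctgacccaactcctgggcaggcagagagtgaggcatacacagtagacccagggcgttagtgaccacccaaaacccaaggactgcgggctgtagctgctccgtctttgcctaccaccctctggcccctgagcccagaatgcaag
Atp1b1 (chr1:164458356-164458605, minus strand): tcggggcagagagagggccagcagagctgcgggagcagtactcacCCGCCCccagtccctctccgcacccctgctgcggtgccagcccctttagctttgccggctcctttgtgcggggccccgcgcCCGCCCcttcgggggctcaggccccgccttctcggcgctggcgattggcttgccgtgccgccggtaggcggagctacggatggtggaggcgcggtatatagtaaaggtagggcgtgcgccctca

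The Clcn1 window held 3 E-boxes, whose last bases lay 120, 96 and 64 bases before the start. It also held the MEF2 site CTATAAATAG, ending 42 bases before the start, and within it the TATA box, ending 45 bases before. The Atp1b1 window held 2 GC boxes, read as CCGCCC on the strand shown, ending 200 and 119 bases before the start. None of these letters was found in the Scn4a window. Among 32851 promoter windows of this length, 66.2% held an E-box, 0.508% the MEF2 site, 12.4% the TATA box and 32.7% the GC box. A match describes letters in a window and is not evidence of binding.

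Values are normalized read counts per gene, which are not divided by gene length. Summed values were 927958 to 1080139 per mouse, and the estimated depth was 9023348 to 12184049 reads. The thinnest value of any of the 6 genes, Atp1b1 in IM mouse 3, rested on about 491 reads, a counting error of 4.51%. Mstn, the label check, had 79.7 to 138 normalized reads in the 6 wild-type mice and 8.70 to 21.6 in the 6 myostatin-reduced mice. Genes that define striated muscle were present in every mouse, with a summed level of 75923 to 108160. Slow-fibre RNA set some mice apart within their own groups, which bears on the pump genes. Myh7, the slow myosin heavy chain, was at 63.1 to 498 normalized reads in IW mice 1 and 3, AW mice 2 and 3, and AM mice 1 and 2. It was at 1.29 to 15.6 in the other 6 mice, all 3 IM mice among them. In such bulk samples, fewer cells of a type and less RNA per cell cannot be told apart.

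Of the 6 genes, 5 differed between active and inactive mice at a FDR-adjusted P-value under 0.05 in limma, against 14.5% of all genes tested. Scn4a, Clcn1, Kcnj11 and Atp1b2 were lower in active mice (4 of 6, against 6.51% of all genes), and Atp1b1 was higher (1 of 6, against 7.99%). Between genotypes 1 of the 6 differed, Atp1b2, against 5.78% of all genes. The activity-by-genotype interaction passed for 0 of the 6 and for 0 of all genes in limma, and at an unadjusted p under 0.05 for 0 of the 6, against 4.10% of all genes. The median activity change of the 6 was -0.28 on the log2 scale, beside -0.022 over all genes tested. Atp1b1, Atp1b2 and Scn4a are also among genes the study listed from these mice, so their changes here are not independent evidence. The study listed Atp1b2 for an activity-by-genotype interaction, from its own mapping and Cuffdiff tests. Here the Atp1b2 interaction was 0.33 on the log2 scale and did not pass (adjusted p = 0.890, limma).

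**Figure D1:**
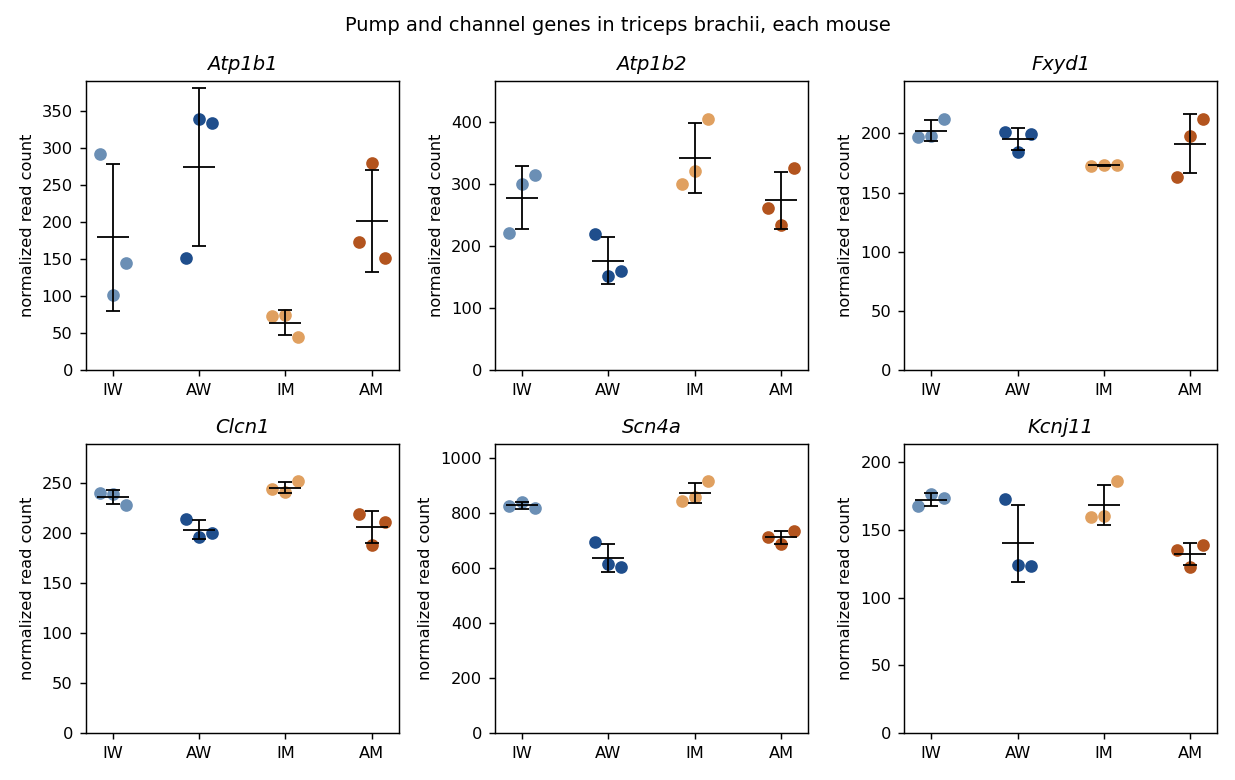
Normalized read counts (vertical axes, from 0) of the 6 genes in each mouse of the 4 groups (IW, AW, IM and AM, n = 3 each), with a bar at the group mean and whiskers of 1 SD. For Scn4a and Clcn1 every active mouse lies below every inactive mouse, while Atp1b1 varies most, from 45.1 in an IM mouse to 339.7 in an AW mouse.

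Scn4a, the channel that carries the action potential of the fibre, was lower in every active mouse than in every inactive mouse. Inactive mice had 823, 841 and 815 normalized reads (IW) and 843, 857 and 914 (IM). Active mice had 694, 614 and 602 (AW) and 713, 686 and 732 (AM). The highest active mouse was thus below the lowest inactive mouse, a separation in this direction seen in 1.20% of all genes tested. Within 1 genotype, 17.5% of all genes separated AW from IW mice in either direction and 29.8% separated AM from IM mice. Likewise 25.8% separated IM from IW and 15.2% AM from AW mice. Scn4a fell by 0.34 on the log2 scale with activity (SE 0.0485, adjusted p = 0.00179, limma). The AW mean was 0.770 times the IW mean, and the AM mean 0.815 times the IM mean. Within myostatin-reduced mice the change was -0.29 (SE 0.0686, adjusted p = 0.0246, limma), and in wild-type mice it was -0.38 (SE 0.0686, adjusted p = 0.0611, limma). The difference between these changes was 0.085, with a 95% interval of -0.13 to 0.30 (adjusted p = 0.908, limma), so a difference of that size could not be told from none. Myostatin-reduced mice exceeded wild-type mice by 0.12 (adjusted p = 0.175, limma). The activity call held in all of the alternative settings, while that within myostatin-reduced mice was lost without any 1 of the IM mice or AM mouse 2 (adjusted p 0.0584 to 0.110).

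Clcn1, which carries most of the resting chloride conductance of muscle, followed the same order with a smaller change. It was at 239.9, 239 and 228 normalized reads in IW mice and at 244, 240.3 and 251 in IM mice. Active mice had 214, 196 and 199.7 (AW) and 218, 188 and 211 (AM). Here too all 6 active mice lay below all 6 inactive mice. Clcn1 fell by 0.23 on the log2 scale with activity (SE 0.0476, adjusted p = 0.00794, limma). The AW and AM means were 0.862 and 0.839 times those of their inactive counterparts. Within myostatin-reduced mice the change was -0.25 (SE 0.0673, adjusted p = 0.0381, limma), and in wild-type mice -0.21 (SE 0.0673, adjusted p = 0.158, limma). The interaction was -0.041 (95% interval -0.25 to 0.17), and the genotype difference 0.037 (95% interval -0.066 to 0.14, adjusted p = 0.699, limma). The activity call held in all of the alternative settings, but the call within myostatin-reduced mice was lost without any IM mouse, AM mouse 2 or 3, or AW mouse 2 or 3 (adjusted p 0.0508 to 0.164). It was also lost without the variance trend (adjusted p = 0.0568) and in a fit of the AM and IM mice alone (adjusted p = 0.0800). Clcn1 shares its position with Fam131b on the opposite strand, and whether the counting used strand was not stated, so a contribution of Fam131b reads cannot be told apart.

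Kcnj11, the inward-rectifier pore of the ATP-sensitive channel, was lower in 5 of the 6 active mice. IW mice had 167, 176 and 174 normalized reads and IM mice 159, 160.4 and 186. AW mice had 173, 124 and 123, and AM mice 135, 123 and 139. AW mouse 1 stood apart at the inactive level, and the other 5 active mice, at 139 or less, were below every inactive mouse. Kcnj11 fell by 0.33 with activity on the log2 scale (SE 0.0818, adjusted p = 0.0193, limma). This call was lost without IM mouse 3, AW mouse 2, AW mouse 3 or AM mouse 2 (adjusted p 0.0518 to 0.0563). The change was -0.35 (adjusted p = 0.0828, limma) within myostatin-reduced mice, whose ranges did not overlap, and -0.32 (adjusted p = 0.220, limma) within wild-type mice. The change within myostatin-reduced mice also passed in a fit of the AM and IM mice alone (adjusted p = 0.0446). Without AW mouse 1 both passed, at -0.35 (adjusted p = 0.0137) and -0.48 (adjusted p = 0.0252). The genotype difference was -0.052 (95% interval -0.23 to 0.13).

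**Figure D2:**
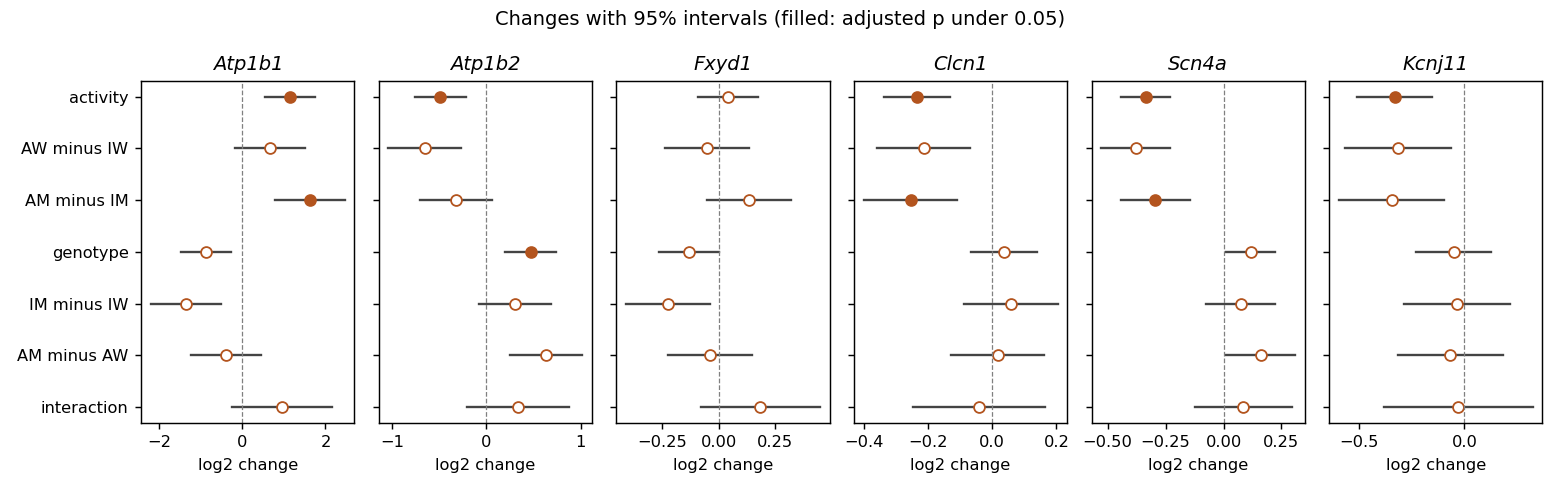
Log2 changes of the 6 genes (horizontal axes, a separate scale for each gene) with 95% intervals for activity, genotype, their interaction and the 4 differences within a genotype or an activity level. Filled points have an adjusted p under 0.05, and the activity interval lies below 0 for Atp1b2, Clcn1, Scn4a and Kcnj11 and above 0 for Atp1b1.

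Atp1b1, the beta subunit that is the usual partner of pump alpha subunits, had the widest range of the 6, 7.53-fold between its lowest and highest mouse. IW mice had 292, 102 and 145 normalized reads, and IM mice 72.9, 74.8 and 45.1. AW mice had 152, 339.7 and 334, and AM mice 174, 279.9 and 151. The IM mice were below all other mice, and IW mouse 1 was the only inactive mouse above 145. Atp1b1 rose by 1.14 on the log2 scale with activity (SE 0.276, adjusted p = 0.0175, limma), a call that missed the threshold without AW mouse 2 (adjusted p = 0.0501) or AW mouse 3 (adjusted p = 0.0511). Within myostatin-reduced mice it rose by 1.62 (SE 0.390, adjusted p = 0.0279, limma), the AM mean being 3.14 times the IM mean, with no overlap. That call was lost without any 1 of the IM mice or AM mouse 2 (adjusted p 0.0618 to 0.135). Within wild-type mice the change was 0.66 (SE 0.390, adjusted p = 0.471, limma) and the ranges overlapped. The interaction was 0.96, with a 95% interval of -0.24 to 2.15 (adjusted p = 0.890, limma). The genotype difference was -0.88 (SE 0.276, adjusted p = 0.0845, limma) and passed without IW mouse 2 (-1.05, adjusted p = 0.0455) or AW mouse 1 (-1.07, adjusted p = 0.0259). Among inactive mice the IM values lay below all IW values (-1.36, adjusted p = 0.0933, limma).

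Atp1b2, a beta subunit prominent in glia and in fast muscle fibres, had changes of opposite sign to those of Atp1b1 for both factors. IW mice had 221, 301 and 314 normalized reads, and IM mice 299.95, 321 and 406. AW mice had 220.1, 151 and 159, and AM mice 262, 235 and 325. The AW mice were the lowest of all, below every IW and every AM mouse. AW mouse 1 (220.06) and IW mouse 1 (220.80) were nearly equal, however, on about 2543 and 2457 reads. Atp1b2 fell by 0.49 on the log2 scale with activity (SE 0.125, adjusted p = 0.0226, limma) and rose by 0.47 with myostatin reduction (SE 0.125, adjusted p = 0.0470, limma). The activity call was lost without IW mouse 2 or 3, IM mouse 3, AW mouse 2 or 3, or AM mouse 2 (adjusted p 0.0526 to 0.0635). The genotype call was lost without any 1 of 9 of the 12 mice (adjusted p 0.0562 to 0.119) and was kept without IW mouse 3, AW mouse 1 or AM mouse 2. Among wild-type mice the activity change was -0.66 (SE 0.176, adjusted p = 0.118, limma), and among active mice the genotype difference was 0.63 (SE 0.176, adjusted p = 0.207, limma). AM and IW mice differed by -0.020 (95% interval -0.40 to 0.36).

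Per kilobase of annotated exon, Atp1b1, Atp1b2 and Atp1b3 averaged 74.4, 65.6 and 16.6 normalized reads over the 12 mice, and the order of the first and second depended on the mouse. Atp1b1 exceeded Atp1b2 per kilobase in 1 of 3 IW, 3 of 3 AW, 0 of 3 IM and 2 of 3 AM mice. Its share of the beta subunit level per kilobase was 63.0%, 31.8% and 38.6% in IW mice and 25.2%, 24.8% and 14.1% in IM mice. In AW mice it was 47.1%, 73.0% and 71.4%, and in AM mice 47.3%, 60.3% and 38.6%. The share was thus lowest in the 3 IM mice. The summed beta level per kilobase was 159 ± 30.0 (SD, n = 3) in IW and 125 ± 6.63 in IM mice, and 173 ± 34.5 in AW and 168 ± 20.8 in AM mice. These shares rest on exon lengths from the annotation and are given without a test. The lengths, 2422 bases for Atp1b1 and 4085 for Atp1b2, join the exons of all GENCODE transcripts. Reads were counted in RefSeq exons, so these lengths may not match the counts. Before division by length Atp1b1 was 0.689 times Atp1b2 in AW mouse 1 and 0.664 times in AM mouse 1, so their order depends on the lengths.

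Fxyd1, phospholemman, which restrains the pump until it is phosphorylated, was the least variable of the 6 between its lowest and highest mouse. IW mice had 197, 197 and 212 normalized reads, and IM mice 173, 174 and 173. AW mice had 201, 184 and 199.8, and AM mice 163, 198 and 212. The 3 IM mice were below every IW mouse (-0.22 on the log2 scale, SE 0.0854, adjusted p = 0.201, limma), while AM mice ran from below every IM mouse to above all but 1 of the other mice. The activity difference was 0.041 (95% interval -0.090 to 0.17, adjusted p = 0.676, limma) and the genotype difference -0.13 (95% interval -0.26 to 0.0014, adjusted p = 0.228, limma). Fxyd1 therefore passed in none of the comparisons with all 12 mice. AM and IM mice differed by 0.13 (adjusted p = 0.344, limma), and by 0.24 without AM mouse 1, which passed (adjusted p = 0.0350). Its activity interval does not reach the change seen in Scn4a.

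Partner subunits were described whatever their values. Atp1b3, the third beta subunit of the pump, was at 27.3 to 37.0 normalized reads in the 12 mice and differed by 0.077 on the log2 scale with activity (adjusted p = 0.405, limma). Abcc9, a sulfonylurea receptor subunit of ATP-sensitive channels, fell by 0.26 with activity (adjusted p = 0.0105, limma), from 403 to 459 in inactive to 329 to 396 in active mice. Kcnj8, the other pore subunit of such channels, rose by 0.54 (adjusted p = 0.0130, limma). Per kilobase Kcnj8 was at 7.51 normalized reads, against 49.8 for Kcnj11 and 53.7 for Abcc9. Abcc8 was not analysed here.

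Of 10 further pump and FXYD genes reported here, 4 were in the table and 3 were tested. Of these 1 rose with activity, Fxyd6, another FXYD protein, by 1.31 on the log2 scale (SE 0.365, adjusted p = 0.0315, limma). Their median activity change was 0.19, beside -0.022 over all genes. Of 9 further sodium channel subunits reported here 1 was tested and 0 passed in limma for activity or genotype (1 and 0 at an unadjusted p under 0.05). Of 8 further ClC genes 3 were tested, and 1 fell with myostatin reduction, the transporter gene Clcn4-2 (-0.21, adjusted p = 0.0260, limma). Over the listed genes reported here, potassium channels and exchangers included, 25 of 84 were tested, and 3 rose and 5 fell with activity.

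**Figure D3:**
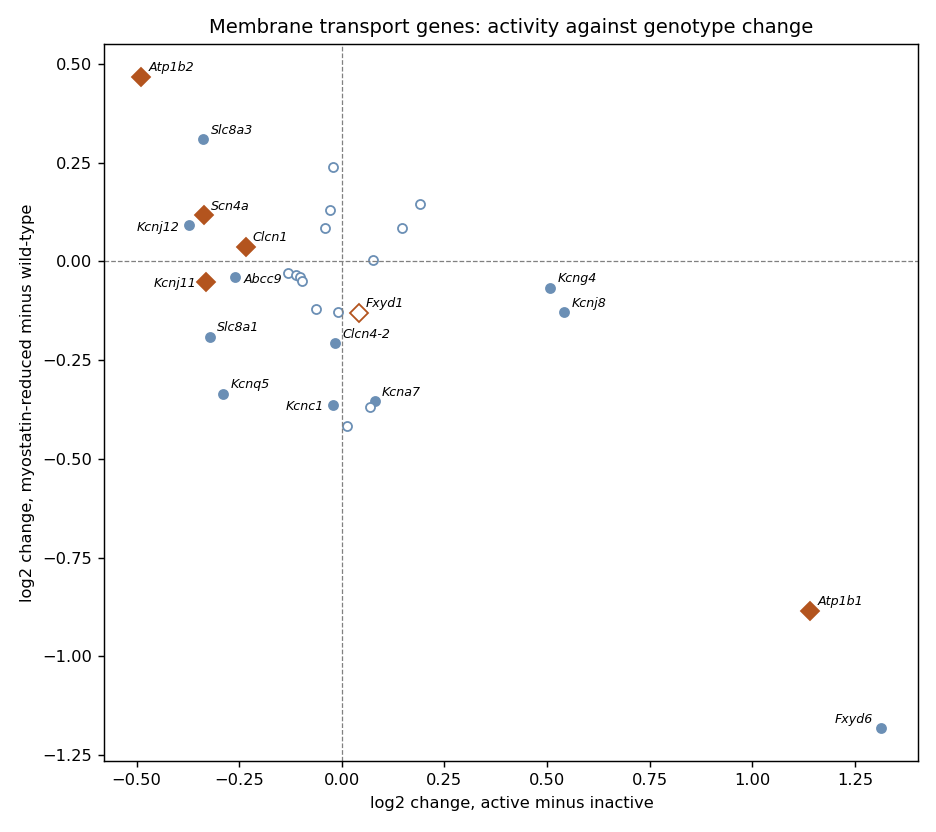
Log2 change with activity (horizontal) against log2 change with myostatin reduction (vertical) for the 6 genes (diamonds) and 25 other membrane transport genes (circles). Filled symbols passed for activity or genotype, and Atp1b1 lies with Fxyd6 at the lower right, opposite to Atp1b2 at the upper left.

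Atp1b1 was high, and Atp1b2 low, in mice with much slow-fibre RNA. The slow-fibre score, a mean log2 deviation of 11 slow-fibre genes from their means over all mice, was 1.96, -1.96 and 0.086 in IW mice and -2.23, -1.39 and -1.79 in IM mice. It was -1.02, 2.33 and 2.49 in AW mice and 1.09, 2.06 and -1.63 in AM mice. The 4 mice with scores of 1.96 or more (IW 1, AW 2, AW 3 and AM 2) had the 4 highest Atp1b1 values, 279.9 to 339.7, and Atp1b2 values of 221, 151, 159 and 235. Of the 11 slow-fibre genes 1 rose with activity, Casq2 (1.34, adjusted p = 0.00306, limma), with a median of 1.80 over the list. Their summed level ranged from 94.3 to 1370 in IW and 78.3 to 112 in IM mice, and from 151 to 1831 in AW and 117 to 1343 in AM mice. With the score in the model the activity change was 0.60 for Atp1b1 (adjusted p = 0.0549), -0.27 for Atp1b2 (adjusted p = 0.114) and -0.21 for Kcnj11 (adjusted p = 0.118). It was -0.29 for Scn4a (adjusted p = 0.00547) and -0.20 for Clcn1 (adjusted p = 0.0426), both still called. The genotype change of Atp1b2 was then 0.31 (adjusted p = 0.0652). Within myostatin-reduced mice all 3 calls were lost, with activity changes of 0.92 for Atp1b1 (adjusted p = 0.0550), -0.23 for Scn4a (adjusted p = 0.0780) and -0.21 for Clcn1 (adjusted p = 0.142). Scores were higher on average in active mice and low in all IM mice, so the score and the groups cannot be told apart in full. Single mice departed from this, with low scores in AW mouse 1 (-1.02) and AM mouse 3 (-1.63) and a high score in IW mouse 1 (1.96).

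**Figure D4:**
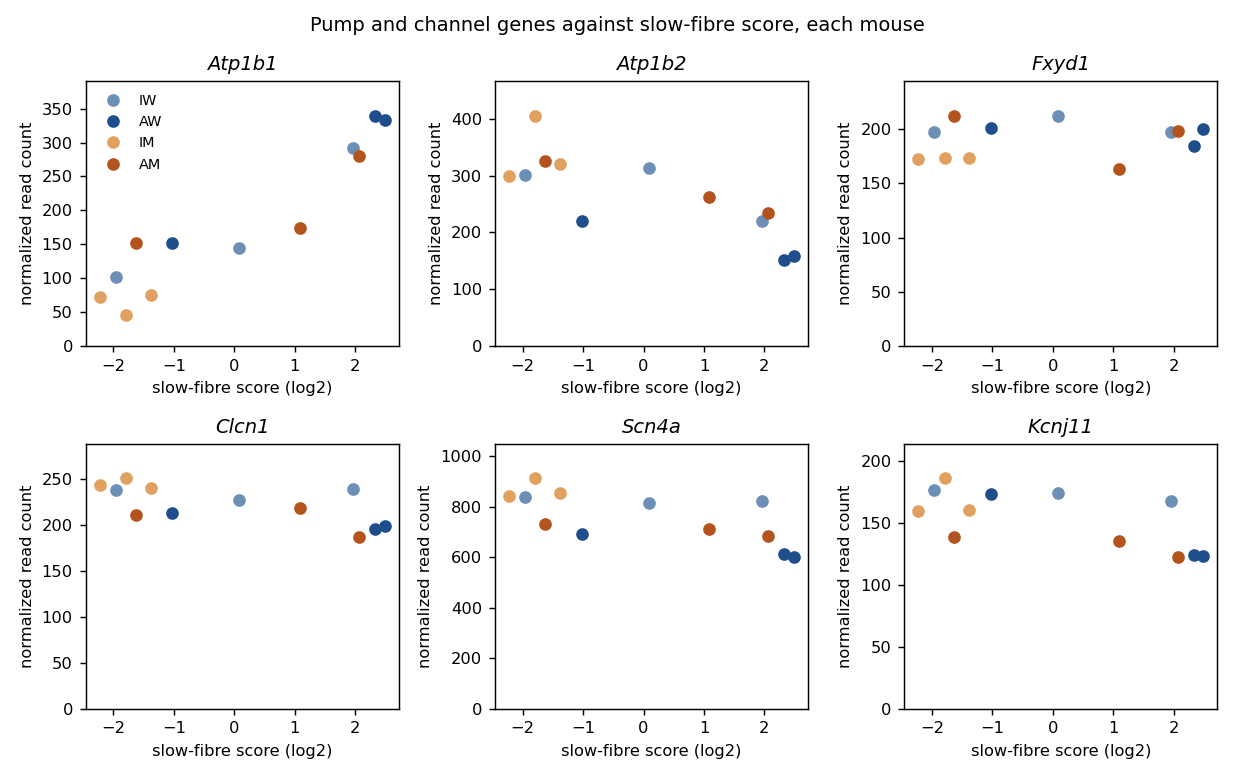
Normalized read counts of the 6 genes (vertical axes, from 0) against the slow-fibre score of each mouse (horizontal axes, log2), coloured by group. Atp1b1 is highest in the mice with the highest scores, while for Scn4a and Clcn1 IW mouse 1, with a score of 1.96, lies with the other inactive mice.

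Markers of other cell types were measured in the same mice. Of 6 tested endothelial markers 5 rose with activity (median 0.51 on the log2 scale). Their summed level over 7 genes was 259 to 324 in IW and 221 to 229 in IM mice, and 256 to 436 in AW and 289.9 to 484 in AM mice. Of 6 smooth muscle and pericyte markers 0 passed for activity in limma (2 at an unadjusted p under 0.05), with a median of 0.19 and sums of 136 to 268. Of 8 Schwann cell and nerve markers 3 were tested and 0 passed for activity or genotype in limma (0 at an unadjusted p under 0.05), with sums of 24.0 to 83.4 over 5 genes, while Sox10, S100b and Mag were not analysed here. Among 10 fast-fibre genes 1 rose and 3 fell with activity, with a median of -0.19 and sums of 156636 to 239842. The part of these cells in the results for the pump and channel genes was not tested.

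Active wild-type mice and inactive myostatin-reduced mice differed in more of the 6 genes than any other pair of groups. AW and IM mice differed in 4 of the 6 genes, against 18.7% of all genes. Atp1b1 was 2.02 higher on the log2 scale in AW (adjusted p = 0.00481), with a mean 4.28 times that of IM mice. Atp1b2 was lower in AW by a log2 change of -0.96 (adjusted p = 0.00400), Scn4a by -0.45 (adjusted p = 0.00179) and Clcn1 by -0.27 (adjusted p = 0.0161, limma). Without IM mouse 3, AW mouse 2 or AW mouse 3 the Clcn1 call was lost (adjusted p 0.0649 to 0.0692), as it was once the model held the slow-fibre score (-0.21, adjusted p = 0.148). With that score Atp1b1 differed by 1.09 (adjusted p = 0.0300) and Atp1b2 by -0.58 (adjusted p = 0.0369), both still called. Markers differed between the same groups. In AW against IM mice 4 of 5 muscle identity genes were lower (median -0.41 on the log2 scale), 5 of 10 fast-fibre genes were lower and 1 higher, 3 of 11 slow-fibre genes were higher and 5 of 6 endothelial markers were higher, and the part of the muscle identity, fast-fibre and endothelial genes in this comparison was not tested. AM and IW mice differed in 0 of the 6 (3 at an unadjusted p under 0.05, against 20.1% of all genes), beside 2.97% of all genes called. Within a genotype, AM and IM mice differed in 3 of the 6, against 7.84% of all genes. AW and IW mice differed in 0 of the 6 in limma (4 at an unadjusted p under 0.05), against 0.0276% of all genes called and 14.7% at the unadjusted level. Within an activity level, IM and IW mice differed in 0 of the 6 (2 at an unadjusted p under 0.05, against 17.4% of all genes), and 2.51% of all genes were called. AM and AW mice also differed in 0 of the 6 (2 at an unadjusted p under 0.05, against 12.3%), with 0.207% of all genes called. These comparisons share groups, so their values are not independent of each other.

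In group means the order was AW, AM, IW, IM for Atp1b1 and IM, IW, AM, AW for Atp1b2, Clcn1 and Scn4a. For Kcnj11 it was IW, IM, AW, AM and for Fxyd1 IW, AW, AM, IM. Of the 18 pairs of neighbours in these orders, 0 passed the threshold in limma and 6 had an unadjusted p under 0.05. Neighbours whose ranges did not overlap were IW and IM for Atp1b1, AM and AW for Atp1b2, and IM with IW and IW with AM for both Clcn1 and Scn4a. Of all genes tested, 25.8% did not overlap between IM and IW mice, 15.2% between AM and AW and 21.0% between AM and IW.

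Genes with the most similar pattern were sought among the 2555 genes whose mean reached 50, by Pearson's r of log2 values over the 12 mice. These points share libraries and groups, so r is a description, and the value after removing group means is given second. Atp1b1 was closest to Fhl1, a LIM-domain protein of muscle (r = 0.986 and 0.969), and Fxyd6 (0.984 and 0.958), and most opposite to the phosphoglucomutase gene Pgm2 (-0.978 and -0.946). Atp1b2 was closest to Ywhag (0.968 and 0.989) and to Dysf, dysferlin of membrane repair (0.963 and 0.903), and most opposite to the cohesin gene Rad21 (-0.966 and -0.891). Scn4a was closest to Spnb1, erythroid and muscle beta spectrin (0.975 and 0.782), and to Ryr1, the calcium release channel (0.966 and 0.736), and most opposite to Atp5j2, an ATP synthase subunit (-0.972 and -0.865). Clcn1 was closest to Mylk4 (0.973 and 0.974) and Ston2 (0.961 and 0.782), and most opposite to Bola3 (-0.964 and -0.820). Kcnj11 was closest to Tmcc1 (0.979 and 0.986) and Rabgef1 (0.968 and 0.936), and most opposite to Slco3a1 (-0.954 and -0.943). Fxyd1 had the loosest matches, with Stk11 (0.918 and 0.895) and Tmed4 (0.870 and 0.786), and was most opposite to Pcnx (-0.923 and -0.958).

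On the NCBIM37 (mm9) annotation the genes lie on 4 chromosomes. Atp1b1 is at chr1:166367398-166388486 and Atp1b2 at chr11:69413238-69419444. Scn4a is at chr11:106179906-106214602, and Clcn1 at chr6:42236684-42265755. Fxyd1 is at chr7:31836700-31840675 and Kcnj11, with a single exon, at chr7:53352533-53355607. Clcn1 is on the plus strand and the other 5 genes are on the minus strand, and reads were counted over their exons.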

How the data were processed

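Polyadenylated triceps RNA of 12 mice (3 per group) was sequenced as single-end reads. The authors mapped reads with CASAVA (version not given in the sources used here) to mm9, counted them in RefSeq exons summed to genes, and deposited a signal, a normalized read count scaled to equal trimmed means and not divided by length. Whether strand was used was not stated.

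From these values limma 3.58.1 in R 4.3.3 was fitted to log2(value + 1), with 1 mean per group over all 12 mice, an empirical Bayes trend, and Benjamini-Hochberg adjustment over 7247 genes with a mean of at least 10. Calls were two-sided at an adjusted p under 0.05. The scale understates changes of low genes. Whole reads could not be recovered for nearly all genes, so no count test was run. The spacing of low values gave the depth, and counting errors cover sampling of reads only. The script was tested on simulated data with 200 changed genes.

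Groups and mouse numbers came from sample titles. Mice were matched for running without the pairs being stated. Same-numbered AM and IM mice deviated together (r 0.171 to 0.322), while the other comparisons showed no such pattern in every pair. For AM and AW mice, which both had wheels, r ran from -0.325 to 0.484. IM mice had no wheel, so matching for running does not pair them with AM mice. Whether the number pairs mice in another way was not tested. The genes and lists were chosen with earlier results of these data known. 4 listed genes that were tested are not reported here and are left out of the list counts, and of these 1 passed in each direction for genotype. Listed genes were named where called for activity, genotype or interaction, at most 4 per list and contrast, with fixed partner subunits and, for each of the 6 genes, the 2 most similar genes and the most opposite one. Alternatives were other pseudocounts, filters, scalings, weights, a replicate block, a slow-fibre covariate, no variance trend, fits of only the 6 mice compared and leaving out each mouse.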

Additional observations from a re-analysis of the deposited data

How the results depend on the processing

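Over 54 changes of the 6 genes and 23 alternative settings, 1128 of 1224 recomputed values kept their direction and side of the threshold, 50 lost a call, 22 gained one and 24 turned direction, none of the last belonging to a called change. With the slow-fibre covariate 2 genes were called for activity, 0 for genotype, 1 for AW against IW, 0 for AM against IM, 3 for AW against IM and 2 for AM against IW. Over all 7247 genes the covariate called 401 for activity, 309 for genotype, 28 for AW against IW, 187 for AM against IM, 338 for AW against IM and 428 for AM against IW. With sample weights 2 were called for genotype and 4 for AW against IW, beside 608 and 415 of all genes. Without the variance trend 0 were called for genotype, beside 375 of all genes. For AW against IW a filter at a mean of 50 called 1 (39 of 2556 genes) and quantile normalization 1 (3 of all genes), and the latter also called 1 for AM against IW (202 of all genes). In a fit of only the AM and IM mice, Kcnj11 gained a call and Clcn1 lost its call. The number called over all genes in that fit was not recorded. Leaving out 1 mouse, the numbers called ranged from 2 to 5 for activity, 0 to 2 for genotype, 0 to 3 for AW against IW, 0 to 4 for AM against IM, 3 to 5 for AW against IM and 0 to 1 for AM against IW. Over all genes these fits called 552 to 1485 for activity, 180 to 579 for genotype, 0 to 198 for AW against IW, 85 to 1098 for AM against IM, 553 to 1643 for AW against IM and 58 to 309 for AM against IW, so the whole table moved as well. The lowest activity counts came without AW mouse 2 (596 of all genes) or AW mouse 3 (552), and the highest AW against IW count without AW mouse 1 (198). AM against IM fell to 0 without any 1 of the IM mice or AM mouse 2, and AM against IW reached 1 without AW mouse 1. The cause was not tested.

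With the replicate block 5 genes were called for activity, 1 for genotype and 3 for AM against IM, beside 1082, 364 and 628 of all 7247 genes, and it changed no call of the 6 genes. For AW and IW mice the same-number correlation averaged -0.27.

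Changes near 0 turned direction. The Kcnj11 interaction was 0.10 with sample weights and 0.041 with the covariate, and ranged from -0.11 to 0.13 leaving out 1 mouse. For AM against AW, Clcn1 was -0.0033 with quantile normalization and ranged from -0.028 to 0.081, Kcnj11 was 0.028 with sample weights and ranged from -0.15 to 0.094, and Fxyd1 ranged from -0.12 to 0.071. For AM against IW, Atp1b2 was 0.0017 with quantile normalization and 0.039 with the covariate and ranged from -0.18 to 0.084, Atp1b1 ranged from -0.079 to 0.68 and Fxyd1 from -0.17 to 0.020. The Kcnj11 genotype difference ranged from -0.092 to 0.029, its IM against IW difference from -0.11 to 0.0022, and the Clcn1 interaction from -0.085 to 0.023. With 3 mice per group, intervals stayed wide for Atp1b1, and a miss of the threshold does not show that groups were alike.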

Other observations

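Other potassium channels moved in both directions. Of 47 listed genes reported here, 14 were in the table and 10 were tested. With activity 1 rose, Kcng4, a modulatory subunit (0.51 on the log2 scale, adjusted p = 0.00379, limma), and 2 fell. Kcnj12, an inward rectifier, fell by 0.37 (adjusted p = 0.00190, limma), from 70.8 to 85.2 normalized reads in inactive mice to 56.2 to 68.6 in active mice, and Kcnq5, a voltage-gated channel, fell by 0.29 (adjusted p = 0.00280, limma). Among those that passed for genotype were Kcna7, a voltage-gated channel of the Shaker family (-0.35, adjusted p = 0.00492, limma), Kcnc1 (-0.36, adjusted p = 0.0434, limma) and again Kcnq5 (-0.33, adjusted p = 0.00263, limma). Kcnq5 was at 85.9 to 90.2 in IW and 64.7 to 68.8 in IM mice, and at 64.1 to 74.5 in AW and 54.3 to 58.5 in AM mice, so the AM mice were the lowest of all.

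Of 6 tested cation-chloride cotransporters and exchangers, 2 fell with activity, both sodium-calcium exchangers. Slc8a1 fell by 0.32 (adjusted p = 0.0190, limma). Slc8a3 fell by 0.34 (adjusted p = 0.0110, limma) and rose by 0.31 with myostatin reduction (adjusted p = 0.0299, limma), the directions of Atp1b2 in both factors. Slc8a3 was at 66.4 to 70.3 in IW and 84.3 to 90.9 in IM mice, and at 45.5 to 61.3 in AW and 62.9 to 74.8 in AM mice.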
